A study of Mus musculus with 23 samples.

Results

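A set of 9 genes of the plasminogen activator and serpin families were followed through all RNA-seq and ribosome footprint libraries of the study, out of 22350 genes with entries in RNA-seq. The 9 genes are the urokinase receptor *Plaur*, the plasminogen activators *Plau* (urokinase) and *Plat* (tissue plasminogen activator), the secreted inhibitor *Serpine2* and the intracellular serpins *Serpinb1a*, *Serpinb5*, *Serpinb6a*, *Serpinb9* and *Serpinb11*. They were selected on their read counts, which were known for every group. The fold changes and adjusted p-values given for them therefore describe these genes and are no independent evidence for any pattern.

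Plasminogen is an inactive protease of plasma and extracellular fluid that urokinase or tissue plasminogen activator cuts into plasmin, which degrades fibrin and pericellular matrix. The urokinase receptor holds urokinase at the cell surface. Serpins are proteins that trap serine proteases by a large change of their own shape. The clade B serpins lack a classical signal peptide and act mostly inside the cell, on proteases that leak from granules or lysosomes.

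RNA-seq covered C57BL/6 mouse small intestinal organoids, which are epithelial cultures grown from crypts. WT organoids carried VillinCre.ERT2 and RPL22.HA, and 2 lines were sequenced. The *Rptor* fl/fl organoids of RNA-seq carried VillinCre.ERT2 and Rptor.fl/fl without the tagged RPL22, again as 2 lines, so the tag and the loss of *Rptor* cannot be told apart in that comparison. Each of these lines had 2 technical libraries, which were summed. Stem cell enriched (SCe) organoids had the WT genotype and were grown with 10 µM CHIR 99021 and 1.5 mM valproic acid (n = 3). Footprints of organoids came from ribosomes pulled down by the HA tag of RPL22, from SCe organoids (n = 3) and from organoids labelled VillinCre.ERT2.Rptor.fl/fl.RPL22.HA (n = 3). In mice, footprints came from whole small intestine of Lgr5Cre.ERT2.RPL22.HA animals (n = 3) and of animals that also carried Rptor.fl/fl (n = 3), by the same pulldown. Villin drives Cre in the whole intestinal epithelium and Lgr5 drives it in the stem cells of the crypt base. The labels call WT and *Rptor* fl/fl samples untreated, while the study's methods describe tamoxifen induction of Cre in mice of both drivers and, for an extra set of organoids, in culture, with intestines of the Lgr5Cre.ERT2 animals taken the day after. Stem cell depleted cultures were not analysed here.

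Reads assigned to genes numbered 27439432 to 67598842 per RNA-seq sample, 1106157 to 8257453 per organoid footprint library and 772034 to 8238353 per mouse library. *Rptor*, which encodes Raptor of mTORC1, stood at 51.5 and 47.9 CPM (counts-per-million, reads scaled to library size) in WT and at 14.8 and 15.5 CPM in *Rptor* fl/fl organoids by RNA-seq (log2 fold change -1.71, edgeR adjusted p = 0.00521). In footprints, libraries that carry the *Rptor* fl/fl label held 17.3, 18.7 and 16.0 CPM of *Rptor* against 15.2, 41.9 and 21.0 CPM in SCe (log2 -0.53, adjusted p = 0.317), so this gene did not bear the label out, and they are called *Rptor*-labelled libraries throughout. In mice *Rptor* was at 32.6, 34.4 and 36.9 CPM with Rptor.fl/fl and at 41.7, 39.7 and 44.7 CPM without, groups that did not overlap (log2 -0.28, adjusted p = 0.150). All 6 epithelial markers were detected in every group. Fibroblast markers summed to at most 6.25 CPM in any organoid sample and to between 888 and 1330 CPM in mice. The lines of SCe were uneven, with the 4 enterocyte markers summing to 226 CPM in the lowest and 4919 CPM in the highest. Stem cell markers (4) summed to 3373 to 4946 CPM in WT, 727 to 1948 CPM in *Rptor* fl/fl and 695 to 1288 CPM in SCe RNA, and goblet markers (3) to 1411 to 1459 CPM, 2589 to 3600 CPM and 231 to 407 CPM. The part of such shifts in the results below was not tested.

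*Plaur*, *Serpinb5* and *Serpinb11* shared a short motif next to their start sites. Of the 9 genes, 6 matched a RefSeq promoter window on GRCm38.p6, here the 250 bases before an annotated start, and the windows of these 3 held the AP-1 motif TGANTCA (a palindrome, so both strands read alike). The motif was present in 6.75% of 32851 windows of the same length. The *Plaur* window (chr7:24462233-24462482, + strand) held it starting 69 bases before the start. The *Serpinb5* window (chr1:106860925-106861174, + strand) held it 140 bases before. The *Serpinb11* window (chr1:107362064-107362313, + strand) held it at 181 and at 76 bases before a RefSeq start that lies inside the GENCODE gene, whose first base is at 107361198. These 3 windows are printed because they hold the motif. Of these 3 genes, *Plaur* and *Serpinb11* were called higher in *Rptor* fl/fl than in WT RNA and *Serpinb5* was not, where 11.6% of all genes were called higher. *Serpinb9*, whose window held no match, was called too, and *Serpinb6a*, also without a match, was not. Capitals mark the AP-1 motif.
Plaur: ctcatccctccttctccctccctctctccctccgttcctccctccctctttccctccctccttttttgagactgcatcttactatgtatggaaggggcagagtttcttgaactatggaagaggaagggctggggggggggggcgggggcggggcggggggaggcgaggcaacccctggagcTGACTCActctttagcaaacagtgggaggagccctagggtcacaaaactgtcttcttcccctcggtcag
Serpinb5: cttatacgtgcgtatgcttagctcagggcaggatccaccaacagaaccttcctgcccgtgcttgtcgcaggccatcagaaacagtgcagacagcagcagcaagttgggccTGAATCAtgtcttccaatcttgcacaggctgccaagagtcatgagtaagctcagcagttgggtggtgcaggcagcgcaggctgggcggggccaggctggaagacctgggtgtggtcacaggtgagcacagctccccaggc
Serpinb11: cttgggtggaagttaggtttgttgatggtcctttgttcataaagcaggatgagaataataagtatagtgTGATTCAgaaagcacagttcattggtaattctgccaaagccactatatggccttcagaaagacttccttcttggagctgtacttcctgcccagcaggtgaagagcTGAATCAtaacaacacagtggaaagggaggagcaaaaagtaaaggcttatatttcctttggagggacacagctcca

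The window of *Serpine2* held no AP-1 match either, and *Serpinb6a* had a pair of windows, both without one. A second motif searched, TEAD (GGAATG on either strand, in 12.6% of windows), was found among the members only in 1 of the windows of *Serpinb6a*, 215 bases before the start. *Plau*, *Plat* and *Serpinb1a* had no entry. A match describes letters and not binding.

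On GRCm38 with GENCODE vM21, *Plaur* lies at chr7:24462484-24475968, *Plau* at chr14:20836660-20843385 and *Plat* at chr8:22757727-22782844. *Serpine2* (chr1:79794197-79861180), *Serpinb5* (chr1:106861173-106883348) and *Serpinb11* (chr1:107361198-107380475) share chromosome 1. *Serpinb1a* (chr13:32842092-32851185), *Serpinb9* (chr13:33003250-33017957) and *Serpinb6a* (chr13:33917918-34002794) lie in a serpin cluster on chromosome 13 that also holds related gene copies of each.

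Per length, 2 serpins made up most of the RNA of the set. In transcripts-per-million (TPM), a level corrected for transcript length, *Serpinb6a* stood at 305 ± 1.49 (SD, n = 2) and *Serpinb1a* at 285 ± 12.3 in WT organoids, and together they held 94.5% of the summed TPM of the 9 genes. *Serpinb5* followed at 18.1 ± 2.23 TPM, *Plaur* at 13.0 ± 0.372 and *Plat* at 2.12 ± 0.370, while *Serpinb9*, *Plau* and *Serpine2* were below 1 TPM and *Serpinb11* had no read. In *Rptor* fl/fl organoids the order changed below the leading pair. *Plaur* reached 47.2 ± 8.98 TPM and *Serpinb5* 35.4 ± 12.4 TPM, neighbours whose spreads overlap, and *Serpinb11* stood sixth at 6.37 ± 3.51 TPM. The same leading pair held 97.6% of the members' summed footprint TPM in WT mice, with *Serpinb1a* ahead, and *Plau* came next at 7.45 ± 1.61 TPM.

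**Figure D1:**
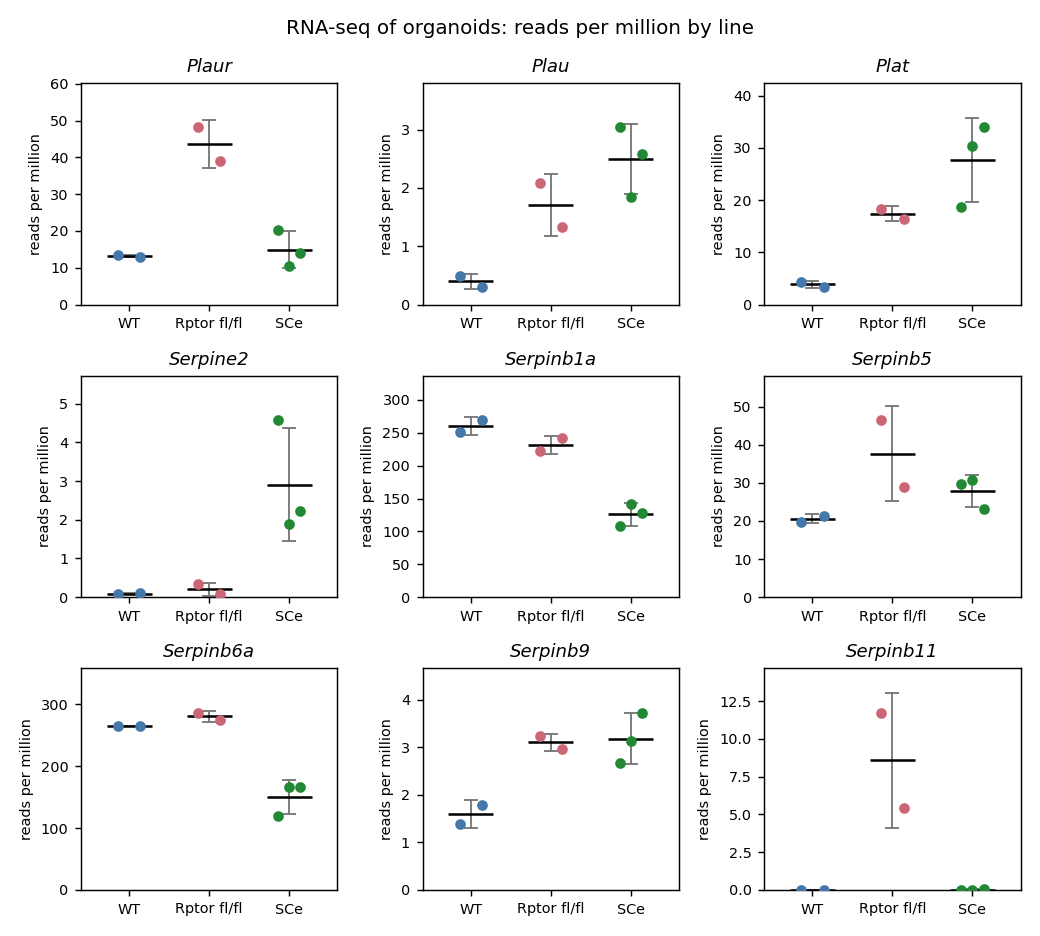
RNA-seq levels of the 9 genes in CPM (y axis, from 0, own scale per gene) for WT (n = 2 lines), Rptor fl/fl (n = 2) and SCe (n = 3) organoids; points are lines, black bars means and grey bars SD. Serpinb11 is at 11.7 CPM for 1 Rptor fl/fl line and 5.42 CPM for the other and has no read in WT, and Serpine2 is highest in SCe.

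Counted over the set, 5 of the 8 members tested rose in *Rptor* fl/fl against WT organoids and 0 fell, where edgeR called 11.6% of 14131 genes higher and 11% lower. Between SCe and WT organoids 4 of 8 rose and 2 fell, against 22.4% and 19.9% of all genes tested. Between *Rptor* fl/fl and SCe organoids 4 of 9 were higher and 1 lower in *Rptor* fl/fl (21% and 21.8% of all genes). These comparisons share samples, so their values stand side by side and are not separate support. In footprints, 1 of 5 members tested was higher and 1 lower in the *Rptor*-labelled libraries than in SCe (6.64% and 9.84% of all genes). In mice 4 of 8 were higher with Rptor.fl/fl and 0 lower (7.46% and 5.97%). The median log2 change of the members tested was 1.35 for *Rptor* fl/fl against WT RNA, beside -0.0049 for all genes, and 0.47 in mice beside -0.02. A member entered a test only if its counts passed a filter on low values, which *Serpine2* did not for *Rptor* fl/fl against WT, *Serpinb11* did not for SCe against WT and in mice, and *Plau*, *Serpine2*, *Serpinb9* and *Serpinb11* did not in organoid footprints. *Serpinb11* passed only through *Rptor* fl/fl, in both comparisons that tested it, and *Serpine2* passed only through SCe in SCe against WT, so their entry into the counts was tied to being high in 1 group. Without the member that passed only through 1 group, 4 of 7 rose in *Rptor* fl/fl over WT (median log2 0.97). In SCe against WT 3 of 7 then rose and 2 fell, and 3 of 8 were higher and 1 lower in *Rptor* fl/fl than in SCe. *Serpine2* stayed in this last count, where 1 *Rptor* fl/fl line was over the filter beside 3 SCe lines. It also stayed among the 4 of 8 in mice, where 1 WT mouse was over the filter beside 3 Rptor.fl/fl mice. Its entry into both counts was thus tied to its higher group as well.

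*Plaur* RNA was highest in *Rptor* fl/fl organoids. WT lines held 13.4 and 12.9 CPM, *Rptor* fl/fl lines 48.2 and 38.9 CPM and SCe 20.3, 10.4 and 13.9 CPM. Both *Rptor* fl/fl lines lay above all 5 others, while SCe overlapped WT. The rise over WT was 3.32-fold (log2 1.73, SE 0.130, edgeR adjusted p = 0.00894) and the difference from SCe 2.94-fold (log2 1.56, SE 0.291, adjusted p = 0.0121). For SCe against WT the log2 difference was 0.20 (95% confidence interval -0.55 to 0.94, adjusted p = 0.615), and -0.0915 without SCe line 1. The difference from SCe missed the threshold without *Rptor* fl/fl line 1 (adjusted p = 0.0835) and without line 2 (adjusted p = 0.0562).

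In footprints *Plaur* was not called against SCe. The *Rptor*-labelled libraries held 60, 75 and 83 footprints (9.97, 11.9 and 10.1 CPM), and SCe held 53, 10 and 26 (28.8, 8.55 and 6.01 CPM). The first SCe library stood apart and the groups overlapped (log2 -0.40, 95% confidence interval -1.59 to 0.79, adjusted p = 0.637). Without that library the difference was 0.64 on the log2 scale. Salmon assigned 91.9% of the RNA reads of *Rptor* fl/fl organoids to Plaur-201, but 54.6% of the footprints in the *Rptor*-labelled libraries, with 38.9% on Plaur-203. In mice *Plaur* was at 7.58, 3.65 and 2.92 CPM in WT and 2.31, 4.87 and 5.05 CPM with Rptor.fl/fl, from 6 to 40 footprints per library, and the groups overlapped (log2 0.22, 95% confidence interval -0.64 to 1.07, adjusted p = 0.792).

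*Plat* and *Plau*, the activators of plasminogen, rose in both *Rptor* fl/fl and SCe organoids over WT. *Plat* RNA was at 4.38 and 3.45 CPM in WT, at 18.4 and 16.4 CPM in *Rptor* fl/fl and at 18.7, 30.3 and 34.0 CPM in SCe. The rise was 4.44-fold in *Rptor* fl/fl (log2 2.15, SE 0.158, adjusted p = 0.00893) and 7.18-fold in SCe (log2 2.84, SE 0.324, adjusted p = 0.00363), each group clear of WT. SCe lay above *Rptor* fl/fl in every sample, yet the log2 difference of -0.67 (SE 0.271) did not pass the test (adjusted p = 0.102). Without SCe line 1, the lowest of its group, that difference was -0.89 with an adjusted p of 0.00115.

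*Plau* RNA was scarcer, with 26 and 15 reads (0.491 and 0.303 CPM) in WT, 108 and 76 reads (2.09 and 1.33 CPM) in *Rptor* fl/fl and 91, 118 and 150 reads (3.04, 1.85 and 2.58 CPM) in SCe. It rose 4.27-fold in *Rptor* fl/fl (log2 2.09, SE 0.394, adjusted p = 0.0280) and 6.31-fold in SCe (log2 2.66, SE 0.392, adjusted p = 0.00674). *Rptor* fl/fl and SCe overlapped (log2 -0.54, adjusted p = 0.265). The call for *Rptor* fl/fl was lost without WT line 1, WT line 2 or *Rptor* fl/fl line 1 (adjusted p = 0.0593 to 0.0907), and that for SCe without WT line 2 (adjusted p = 0.0570).

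In organoid footprints *Plat* had the largest log2 difference of the 5 members tested. The *Rptor*-labelled libraries had 49, 24 and 34 footprints (8.14, 3.81 and 4.14 CPM) and SCe had 42, 30 and 186 (22.8, 25.7 and 43.0 CPM), so that every SCe library lay above every other. The level was 5.86-fold lower in the *Rptor*-labelled libraries (log2 -2.55, SE 0.377, adjusted p = 0.00359). The corresponding RNA differed by -0.67, and the difference between both, a change of footprints per mRNA, was -1.83 (SE 0.503, adjusted p = 0.0780). *Plau* had 1, 2 and 2 footprints in the *Rptor*-labelled libraries and 5, 0 and 3 in SCe, too few to compare.

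**Figure D2:**
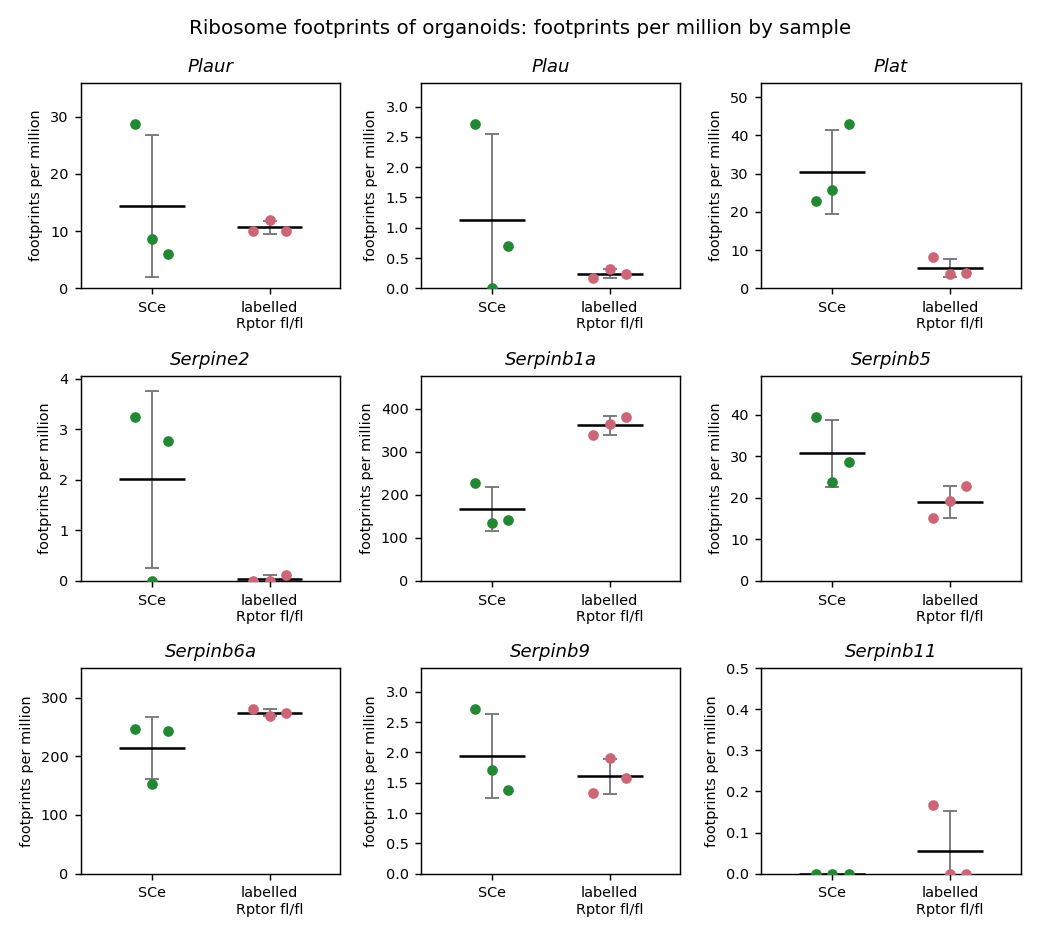
Footprint levels in CPM on the coding sequences of the 9 genes (y axis, from 0, own scale per gene) in SCe organoids and in the Rptor-labelled libraries (n = 3 each); points are samples, black bars means and grey bars SD. Plat lies between 22.8 and 43.0 CPM in SCe and between 3.81 and 8.14 CPM in the Rptor-labelled libraries, and Serpinb11 is near 0 in both.

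In the mouse intestine both activators were higher with Rptor.fl/fl. *Plau* was at 11.4, 17.8 and 15.9 CPM in WT and 25.7, 26.2 and 25.5 CPM with Rptor.fl/fl, a rise of 1.62-fold (log2 0.70, SE 0.160, adjusted p = 0.00885). *Plat* was at 3.79, 8.67 and 11.1 CPM in WT and 22.1, 17.1 and 19.2 CPM with Rptor.fl/fl, a rise of 2.04-fold (log2 1.03, SE 0.221, adjusted p = 0.00584). Neither gene overlapped between genotypes. The lowest WT value of *Plat* rests on 3 footprints, in the library with the fewest reads. When the effective transcript length of each library entered the fit, the log2 changes kept their direction but the adjusted p-values were 0.0574 for *Plau* and 0.0614 for *Plat*. *Plau* also missed the threshold without WT mouse 3 (adjusted p = 0.0667).

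Markers of cells outside the epithelium moved with these footprints in mice. The summed level of the 6 fibroblast markers, all detected, was 888 to 947 CPM in WT and 1128 to 1330 CPM with Rptor.fl/fl, and 5 of the 6 rose. The 5 endothelial markers summed to 65.7 to 80.0 CPM and 95.2 to 103 CPM, with 2 of 5 higher. The 6 immune markers had a mean sum of 248 CPM and 273 CPM, with 2 of 6 higher, and the 5 smooth muscle markers summed to 1220 to 1359 CPM and 1129 to 1290 CPM, with 1 lower. Stem cell markers summed to 498 to 537 CPM in WT and 319 to 490 CPM with Rptor.fl/fl. Their part in the result for *Plau*, *Plat* and *Serpine2* was not tested, and fewer cells of a type and less RNA per cell cannot be told apart in such bulk samples.

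**Figure D3:**
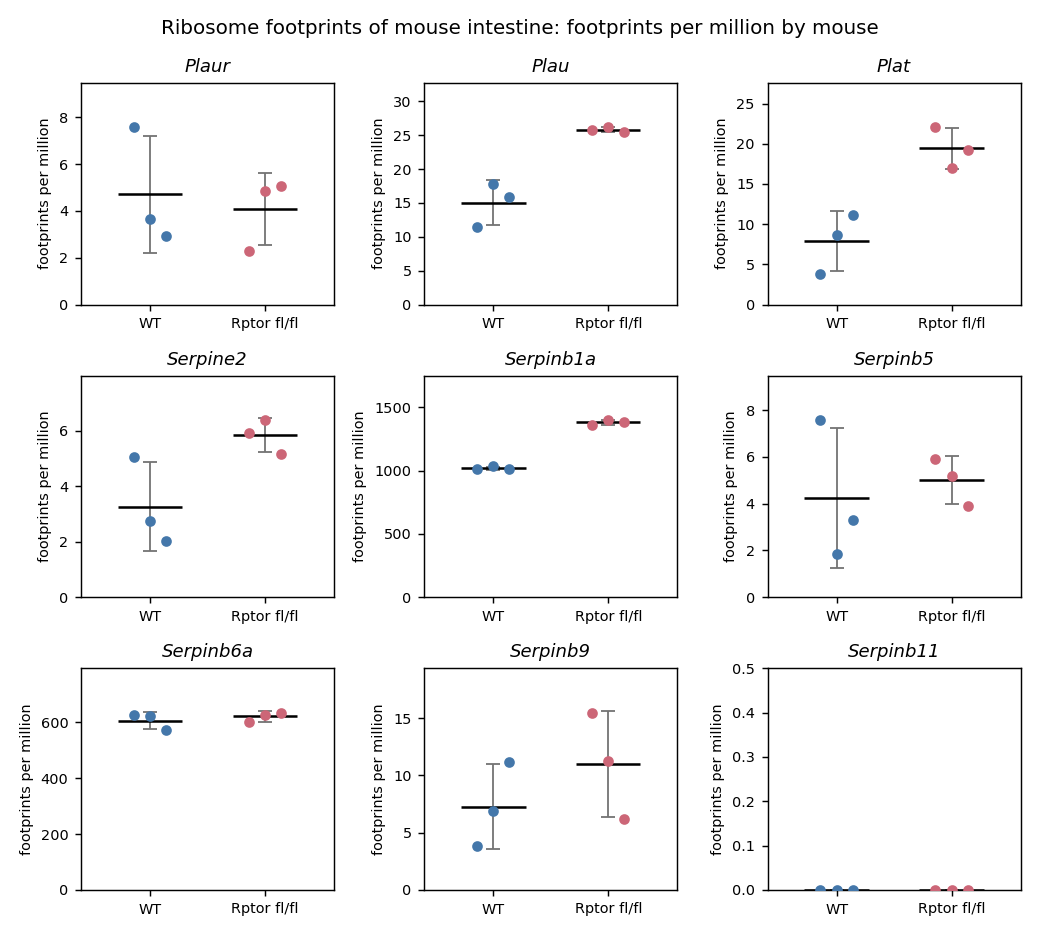
Footprint levels in CPM in mouse intestine for the 9 genes (y axis, from 0, own scale per gene) in WT and Rptor fl/fl mice (n = 3 each); points are mice, black bars means and grey bars SD. Plau, Plat, Serpine2 and Serpinb1a lie higher in every Rptor fl/fl mouse than in every WT mouse, and Serpinb11 has no footprint.

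*Serpine2*, protease nexin-1, which inhibits thrombin, urokinase and plasmin outside the cell, was nearly silent in WT and *Rptor* fl/fl organoids and present in SCe. It had 4 and 5 reads in WT, 17 and 5 in *Rptor* fl/fl and 137, 121 and 130 in SCe, or 4.58, 1.90 and 2.24 CPM in the last. Over the count filter were 3 SCe lines, beside 0 WT lines in one test and 1 *Rptor* fl/fl line in the other. Entry of *Serpine2* into both tests was therefore tied to its being high in SCe. SCe was 32.4-fold above WT (log2 5.02, SE 0.620, adjusted p = 0.00440) and *Rptor* fl/fl 13.8-fold below SCe (log2 -3.79, SE 0.762, adjusted p = 0.0147). The latter was -5.00 without *Rptor* fl/fl line 1 (adjusted p = 0.0431) and -3.11 without line 2, where the call was lost (adjusted p = 0.0739). SCe footprints numbered 6, 0 and 12 and the *Rptor*-labelled libraries had 0, 0 and 1. Fibroblast markers, 4 of 6 detected with Col3a1 and Lum at 0, summed to 3.96 to 6.25 CPM in SCe and 0.464 to 0.491 CPM in WT. Their part in the rise of *Serpine2* was not tested.

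In mice *Serpine2* had 4, 6 and 11 footprints (5.06, 2.74 and 2.01 CPM) in WT and 18, 21 and 41 (5.93, 6.39 and 5.18 CPM) with Rptor.fl/fl. The groups did not overlap, but the WT mouse with the fewest reads came close to the others. Over the count filter were 3 Rptor.fl/fl mice and 1 WT mouse, so entry of *Serpine2* into the test was tied to its being high with Rptor.fl/fl. The log2 change of 1.15 (SE 0.361) passed narrowly (adjusted p = 0.0482) and missed the threshold under 10 of 12 alternative settings, with adjusted p-values of 0.0371 to 0.384 over all of them.

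*Serpinb11*, a clade B serpin, gave the sharpest contrast in RNA. No read was assigned in WT, where a count of 0 allows at most 3 reads per line, while *Rptor* fl/fl lines held 607 and 310 reads (11.7 and 5.42 CPM) and SCe 0, 0 and 3 reads. The mean of *Rptor* fl/fl was at least 142-fold higher than WT, taking 3 reads per line as the floor (edgeR adjusted p = 0.0140). Against SCe the ratio of 917 to 3 reads, scaled by library size, was 426 (95% confidence interval of the counts 145 to 2070, adjusted p = 0.00267), an interval that covers counting error only. In both comparisons the gene passed the count filter only through *Rptor* fl/fl, so both adjusted p-values are tied to its being high there and are no support for the contrast. Both *Rptor* fl/fl lines lay far above every other sample, and line 1 held more than line 2.

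Footprints on *Serpinb11* were at or near 0 in every library. The *Rptor*-labelled libraries held 1, 0 and 0 footprints on *Serpinb11*, and a count of 0 allows at most 0.476 and 0.365 CPM in libraries 2 and 3. SCe libraries held 0, and so did all 6 mice, where a count of 0 allows 0.379 to 3.79 CPM. The gene was therefore not tested in footprints. The RNA and footprint libraries came from organoids of different genotypes, with and without RPL22.HA, and the *Rptor* level did not bear out the label of the footprint libraries. Marker levels are compared only within an assay. Stem cell markers had a mean sum of 5026 CPM in the *Rptor*-labelled and 2208 CPM in the SCe footprint libraries. The single markers were split, with 1 of 4 called higher and 2 lower in the *Rptor*-labelled libraries. In RNA they had 1337 CPM in *Rptor* fl/fl and 896 CPM in SCe, with 2 of 4 called higher and 2 lower in *Rptor* fl/fl. Paneth markers had 2134 and 1517 CPM in footprints and 226 and 1216 CPM in RNA, in the same order. Of these 3 markers, 0 were called in footprints and 1 was called lower in *Rptor* fl/fl RNA. Whether the same cells would show both values for *Serpinb11* was not tested.

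*Serpinb9*, the inhibitor of granzyme B, was low in RNA, at 1.38 and 1.80 CPM in WT, 3.23 and 2.97 CPM in *Rptor* fl/fl and 2.68, 3.14 and 3.73 CPM in SCe. It rose 1.95-fold in *Rptor* fl/fl (log2 0.97, SE 0.217, adjusted p = 0.0396) and 2.04-fold in SCe (log2 1.03, SE 0.266, adjusted p = 0.0322), with neither group overlapping WT. The call for *Rptor* fl/fl was lost on leaving out any 1 of the 4 lines (adjusted p = 0.0789 to 0.181). That for SCe was lost without either WT line or without SCe line 2 or 3 (adjusted p = 0.0855 to 0.191).

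A related gene copy, *Serpinb9b*, moved differently. It had 85 and 91 reads in WT, 718 and 498 in *Rptor* fl/fl and 12, 3 and 4 in SCe. Its log2 change was 2.71 (SE 0.278, adjusted p = 0.0111) in *Rptor* fl/fl and -3.49 (SE 0.876, adjusted p = 0.0295) in SCe, both against WT. Salmon divides any reads that match more than 1 copy, and how many did so here was not tested. With all *Serpinb9* copies summed, which joins genes that moved differently, the difference between *Rptor* fl/fl and SCe went from -0.04 to 2.09 on the log2 scale (adjusted p = 0.00270). In the same sum the difference of SCe from WT was 0.04 (adjusted p = 0.880) and the rise of *Rptor* fl/fl over WT was 2.12 in place of 0.97 (adjusted p = 0.0121). In footprints *Serpinb9* had 8, 12 and 13 reads in the *Rptor*-labelled libraries and 5, 2 and 6 in SCe. In mice it ranged from 3.79 to 11.1 CPM in WT and from 6.19 to 15.5 CPM with Rptor.fl/fl (log2 0.18, adjusted p = 0.803).

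*Serpinb1a* and *Serpinb6a*, inhibitors of neutrophil-type proteases such as elastase and cathepsin G and the members with the most reads, fell in SCe and were not called in *Rptor* fl/fl RNA against WT. *Serpinb1a* was at 251 and 270 CPM in WT, 222 and 241 CPM in *Rptor* fl/fl and 108, 142 and 128 CPM in SCe. SCe was 2.04-fold below WT (log2 -1.03, SE 0.130, adjusted p = 0.00470), while for *Rptor* fl/fl the log2 difference was -0.17 (95% confidence interval -0.37 to 0.03, adjusted p = 0.179). *Serpinb6a* was at 265 CPM in both WT lines, 287 and 275 CPM in *Rptor* fl/fl and 119, 166 and 166 CPM in SCe. It was 1.74-fold below WT in SCe (log2 -0.80, SE 0.165, adjusted p = 0.0169) and differed by 0.08 in *Rptor* fl/fl (95% confidence interval -0.08 to 0.24, adjusted p = 0.372).

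Against SCe, *Rptor* fl/fl organoids held 1.84-fold more *Serpinb1a* RNA (log2 0.88, SE 0.131, adjusted p = 0.00627) and 1.87-fold more *Serpinb6a* RNA (log2 0.90, SE 0.164, adjusted p = 0.0111). Both calls were lost without *Rptor* fl/fl line 2 (adjusted p = 0.0563 and 0.0688), and *Serpinb6a* also without line 1 (adjusted p = 0.0752). The fall of *Serpinb6a* in SCe missed the threshold without either WT line (adjusted p = 0.0927 and 0.0952).

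Footprints of *Serpinb1a* were higher in *Rptor*-labelled libraries than in SCe, as its RNA was in *Rptor* fl/fl. They stood at 338, 364 and 381 CPM in the *Rptor*-labelled libraries and 226, 134 and 142 CPM in SCe, without overlap (2.15-fold, log2 1.11, SE 0.224, adjusted p = 0.0122). This call was lost without *Rptor*-labelled library 2 or 3 (adjusted p = 0.0539 and 0.0618). *Serpinb6a* was at 280, 269 and 274 CPM against 246, 153 and 243 CPM (log2 0.35, 95% confidence interval -0.11 to 0.82, adjusted p = 0.273). Footprints per mRNA differed by 0.28 for *Serpinb1a* (95% confidence interval -0.37 to 0.93) and by -0.49 for *Serpinb6a* (95% confidence interval -1.13 to 0.14), neither past the threshold.

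In mice *Serpinb1a* gave the smallest adjusted p of the members. It was at 1011, 1033 and 1011 CPM in WT and 1360, 1402 and 1386 CPM with Rptor.fl/fl, a rise of 1.36-fold (log2 0.44, SE 0.0633, adjusted p = 0.000235) that passed under all 12 alternative settings. *Serpinb6a*, at 627, 621 and 571 CPM in WT and 600, 627 and 635 CPM with Rptor.fl/fl, overlapped between genotypes (log2 0.04, 95% confidence interval -0.11 to 0.19, adjusted p = 0.784).

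*Serpinb5*, maspin, a serpin without known protease inhibition, was not called by edgeR in any comparison. Its RNA was at 19.8 and 21.4 CPM in WT, 46.5 and 28.8 CPM in *Rptor* fl/fl and 29.8, 30.6 and 23.0 CPM in SCe. Both groups lay above WT in every line, with log2 differences of 0.87 (SE 0.240, adjusted p = 0.0621) and 0.45 (SE 0.151, adjusted p = 0.0648). DESeq2 called both (adjusted p = 0.00240 and 0.0312), and 4 of 11 alternative settings called the first and 3 of 11 the second, among them leaving out *Rptor* fl/fl line 2 (adjusted p = 0.0146) and SCe line 3 (adjusted p = 0.0288). Without *Rptor* fl/fl line 1 the first was 0.48 (adjusted p = 0.0579). In footprints it was at 91, 122 and 187 footprints (15.1 to 22.8 CPM) in the *Rptor*-labelled libraries and 73, 28 and 124 footprints (up to 39.6 CPM) in SCe, apart but not past the threshold (log2 -0.69, SE 0.253, adjusted p = 0.0974). Mice held 4 to 31 footprints each and overlapped (log2 0.50, adjusted p = 0.464).

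Footprints per mRNA set the *Rptor*-labelled footprint libraries over *Rptor* fl/fl RNA and compared that ratio with the one of SCe. Of the 5 members with enough counts, 0 passed with edgeR, where 1.13% of genes were called higher and 1.83% lower. *Plaur* had the largest difference at -1.89 (SE 0.664, adjusted p = 0.145), followed by *Plat* at -1.83 and *Serpinb5* at -1.08 (SE 0.359, adjusted p = 0.132). Each had an unadjusted 95% confidence interval below 0, that of *Plaur* running from -3.35 to -0.43, that of *Plat* from -2.94 to -0.72 and that of *Serpinb5* from -1.87 to -0.28. DESeq2 called *Plat* (log2 -1.82, adjusted p = 0.0119). The RNA and footprint samples of *Rptor* fl/fl differ in genotype, and the result for *Rptor* itself stands above.

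**Figure D4:**
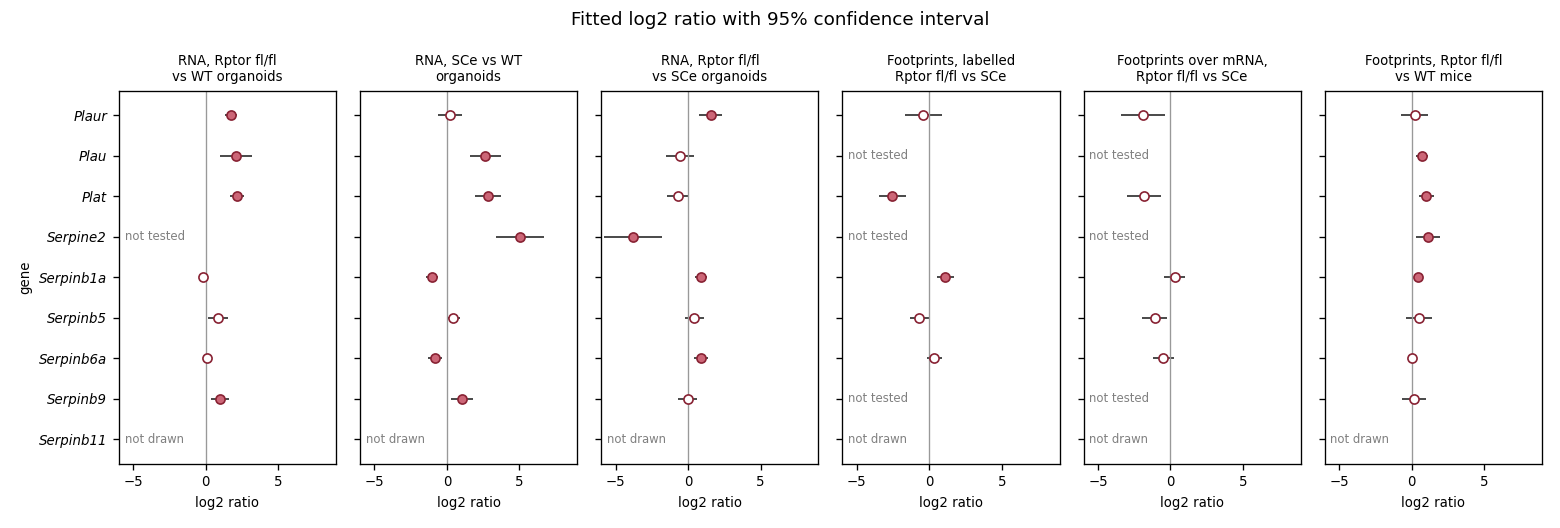
Fitted log2 ratio (x axis) with its 95% confidence interval for the members (y axis) in the 6 comparisons; filled points passed an adjusted p of 0.05, open points did not, and Serpinb11 is not drawn because WT has no read. Plat lies right of 0 in both comparisons with WT organoids and in mice and left of 0 in footprints against SCe.

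Genes whose RNA profile lay nearest to a member were sought over the 7 RNA-seq samples among 14948 genes, by the root mean square difference of mean-centred log2(CPM + 1). Nearest to *Plaur* were *Slc35e4* (0.12), *Adgrg2* (0.14) and *Tnip3* (0.15). *Plau* was nearest to *Chrnb1* (0.12), *Zc2hc1a* (0.12) and *Sorbs2* (0.13). *Plat* was less closely matched, with *Syt14* (0.21), *Ogdhl* (0.22) and *Dnhd1* (0.26). Likeness over 7 samples in 3 groups is a description of these libraries.

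The wider plasminogen system, a list of 22 other genes of which 12 were tested in RNA, did not rise as a list in *Rptor* fl/fl organoids. There 1 rose over WT, *Serpinb8* (log2 3.98, SE 0.388, adjusted p = 0.0109), and 3 fell, the matrix metalloprotease *Mmp7* (log2 -1.70, adjusted p = 0.00954), the plasminogen receptor *Plgrkt* (log2 -0.81, adjusted p = 0.0111) and *S100a10*, part of a cell surface plasminogen binding complex (log2 -0.42, adjusted p = 0.0199). The median of the list was -0.19, and of all genes 11.6% rose and 11% fell. *Serpinb8* passed the count filter only through *Rptor* fl/fl, so its entry was tied to being high there. *Mmp7* is also a marker of Paneth cells, whose 3 markers all fell, from a sum of 1524 to 1761 CPM in WT to 160 to 292 CPM in *Rptor* fl/fl. Their part in the fall of *Mmp7* was not tested. In SCe 2 of 12 rose over WT, *Serpinb8* (log2 2.41, adjusted p = 0.00756) and the protease inhibitor *Timp1* (log2 2.05, adjusted p = 0.0143), which both passed the count filter only through SCe. A further 4 fell, among them *Anxa2*, the partner of *S100a10* (log2 -1.71, adjusted p = 0.00397). Of all genes, 22.4% rose and 19.9% fell.

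In mice 8 of 16 tested genes of this list were higher with Rptor.fl/fl and 0 were lower, beside 7.46% and 5.97% of all genes. *Timp1* went from 5, 8 and 18 footprints in WT to 85, 90 and 215 with Rptor.fl/fl (log2 2.88, SE 0.216, adjusted p = 2.45e-07). The metalloproteases *Mmp9* (log2 1.23, adjusted p = 0.000251) and *Mmp3* (log2 1.91, adjusted p = 0.000668) rose as well. *Mmp3* had at most 1 read in any organoid RNA sample and passed the count filter in mice only through Rptor.fl/fl. The fibroblast markers given above for mice moved the same way as these 3 genes, and their part was not tested.

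Among the serpins outside the set, 56 had entries and 12 were tested in RNA of *Rptor* fl/fl against WT, of which 4 rose and 1 fell (11.6% and 11% of all genes). The 4 were *Serpinb8*, *Serpinb9b*, *Serpina1e* (log2 2.50, adjusted p = 0.0132) and *Serpinb6b* (log2 2.22, adjusted p = 0.0205), each from at most 91 reads in a WT line. *Serpinb8* was also counted in the plasminogen list above. Those lists share serpins, so their counts are not separate, in RNA or in mice. *Serpinb8*, with 76 and 61 RNA reads in *Rptor* fl/fl, had no footprint in any organoid library, and *Serpinb9b* had 5, 4 and 2 in the *Rptor*-labelled libraries. In mice 7 of 15 rose and 0 fell, beside 7.46% and 5.97% of all genes. Among the 7 were *Serpina3n*, an acute phase serpin (54.4, 69.9 and 60.5 CPM in WT and 130, 148 and 135 CPM with Rptor.fl/fl, log2 1.14, adjusted p = 1.64e-06) and *Serpinb2*, an inhibitor of urokinase (log2 3.15, adjusted p = 0.00129). *Serpinb2* passed the count filter only through Rptor.fl/fl. The fibroblast (5 of 6 higher), endothelial (2 of 5) and immune markers (2 of 6) given above rose in the same mice, and their part in the rise of these serpins was not tested.

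Receptors and regulators of thrombin and related proteases, 12 genes of which 7 were tested, rose in 5 cases in *Rptor* fl/fl RNA over WT and fell in 0. Of all genes tested, 11.6% rose and 11% fell. *F2r*, the thrombin receptor PAR1, went from 4 and 2 reads to 590 and 300 (log2 7.10, SE 0.637, adjusted p = 0.0107). It passed the count filter only through *Rptor* fl/fl, so its entry among the 5 was tied to being high there. *F3*, tissue factor, went from 26.4 and 29.2 CPM to 59.1 and 62.3 CPM (log2 1.13, SE 0.0812, adjusted p = 0.00893). *Anxa5*, which binds phosphatidylserine (log2 1.15, adjusted p = 0.0145), and *F2rl1*, the trypsin receptor PAR2 (log2 0.45, adjusted p = 0.0174), rose too. *F2r* had 0, 0 and 1 footprints in the *Rptor*-labelled libraries.

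The membrane protease matriptase (*St14*), its activator *Prss8* and their partners were mostly lower in SCe. Of 12 genes tested in SCe against WT, 1 rose and 8 fell (22.4% of all genes rose and 19.9% fell), with *Prss8* at -1.34 (SE 0.0773, adjusted p = 0.00120), *Tmprss2* at -1.13 (adjusted p = 0.00159) and *St14* at -0.75 (adjusted p = 0.00182) on the log2 scale. In *Rptor* fl/fl against WT 4 of 10 rose and 0 fell (11.6% and 11% of all genes), including the matriptase inhibitors *Spint1* (log2 0.39, adjusted p = 0.0231) and *Spint2* (log2 0.49, adjusted p = 0.0308). The 6 epithelial markers moved with these genes, summing to 6069 to 6389 CPM in WT, 6426 to 6465 CPM in *Rptor* fl/fl and 3873 to 4241 CPM in SCe, with 3 of 6 lower in SCe than in WT, and their part was not tested. In footprints per mRNA, 3 of 10 were lower for the *Rptor*-labelled footprints over *Rptor* fl/fl RNA than for SCe, beside 1.83% of all genes. They were *Mst1r* (log2 -1.46, adjusted p = 0.0128), *Spint1* (log2 -0.93, adjusted p = 0.0399) and *Spint2* (log2 -0.88, adjusted p = 0.0399).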

How the data were processed

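RNA-seq and ribosome footprint libraries of mouse intestinal organoids and intestine (23 libraries in 7 groups) were analysed from the deposited tables. Per the study's methods the authors trimmed footprint reads with cutadapt (version 1.18 in the submitters' processing notes), removed ribosomal RNA and ran Salmon (version 1.1.0) on GENCODE vM21 coding transcripts of mm10. The deposited expected counts (estimated counts per transcript) were summed per gene and technical libraries per line, and rounded to whole numbers. The deposited TPM values of the authors served for levels between genes only and were rescaled after 5′ region entries were left out. Another deposited table, of the authors' own comparison, was not used. RNA was counted on 66244 transcripts, organoid footprints on 59120 coding entries, with 44641 5′ region entries apart, and mouse footprints on 65862 entries that hold 5′ regions as well, so levels are compared only within an assay.

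Counts were tested with edgeR 4.0.16 (filterByExpr, TMM within an assay, quasi-likelihood F-test) in R 4.3.3 across all genes of each comparison, with Benjamini-Hochberg adjustment and a threshold of 0.05. Footprints per mRNA used 1 model over both assays with an interaction term. The procedure was tested on simulated data. CPM values use the TMM-scaled library sizes. Alternatives were DESeq2 1.42.0, no count filter, library totals, an offset for effective length, summed related gene copies, the replicate number as a block and each replicate left out. The members and lists were chosen with earlier results of these data known. Named genes are the members, *Rptor*, and per list and comparison the called genes with the smallest adjusted p, at most 4, and for *Plaur*, *Plau* and *Plat* the 3 nearest RNA profiles, except for 1 gene that is not reported here. *Serpinb9b* and the footprint counts given for *Serpinb8*, *Serpinb9b* and *F2r* were added after their values were seen. Replicates of organoids are lines or cultures as labelled, and p-values measure the spread between these samples only. Intervals on counts cover counting error only.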

Additional observations from a re-analysis of the deposited data

Results flagged for a closer look

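The samples of *Serpinb1a* stood in opposite order in organoid RNA and mouse footprints, and only the mouse difference was called. Both *Rptor* fl/fl organoid lines (222 and 241 CPM) lay below both WT lines (251 and 270 CPM), with a log2 change of -0.17 that did not pass the test (adjusted p = 0.179), while every Rptor.fl/fl mouse lay above every WT mouse. The assays, the Cre drivers and the material differ, and the difference between them was not tested.

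*Serpinb9* held 6 footprints on its 5′ region in the *Rptor*-labelled libraries, 2 in each of the 3, and 0 in all SCe libraries, in entries that no comparison used. The coding sequence held 33 and 13 footprints in the same groups, and 5′ regions took 2.97 to 6.98% of all footprints in these libraries. Of 17 checks for a technical library far from the others of its group, in WT and *Rptor* fl/fl RNA, 0 stood out.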

How the results depend on the processing

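Leaving out 1 replicate gave 3 to 5 members for *Rptor* fl/fl against WT RNA (5 with all lines; 3 without WT line 1, WT line 2 or *Rptor* fl/fl line 1), 3 to 6 for SCe against WT (6; 3 without WT line 2), 1 to 6 for *Rptor* fl/fl against SCe (5; 3 without *Rptor* fl/fl line 1 and 1 without line 2), 1 to 3 for organoid footprints (2; 1 without *Rptor*-labelled library 2 or 3), 0 to 1 for footprints per mRNA (0; 1 without SCe footprint library 1 or 3) and 2 to 4 in mice (4; 2 without WT mouse 3). Where 1 sample was left in a group, it was taken to vary like the other group. Calls over all genes also fell without any 1 line in *Rptor* fl/fl against WT RNA, so lost calls there are not particular to the members. They fell too in SCe against WT without WT line 2 and in *Rptor* fl/fl against SCe without *Rptor* fl/fl line 2. Without SCe line 1 they rose in both. They spanned 671 to 2683 in organoid footprints (1782 with all libraries) and 897 to 1954 in mice (1546). Footprints per mRNA also gave 1 member with DESeq2 and 1 with related gene copies summed, and mice gave 1 with the length offset. Directions turned in these cases, all but the sum of copies short of the threshold. *Plaur* ran from -0.0915 (without SCe line 1) to 0.398 in SCe against WT, from -0.875 to 0.637 (without SCe library 1) in organoid footprints and from -0.179 (without WT mouse 3) through -0.0529 (without Rptor.fl/fl mouse 3) to 0.438 in mice when 1 sample was left out. *Serpinb6a* in mice ran from -0.00367 (without WT mouse 3) to 0.0709 and was -0.0406 with library totals, and *Serpinb9* in mice ran from -0.157 (without Rptor.fl/fl mouse 1) to 0.772. *Serpinb9* between *Rptor* fl/fl and SCe ran from -0.149 to 0.0859 (without SCe line 3; 0.0303 without *Rptor* fl/fl line 2), and was 2.09 with copies summed and 0.0968 with the replicate block. The cause was not tested. Of the members' other values, 455 kept direction and side of the threshold, 37 lost the call and 13 gained it. Same-numbered samples were not treated as pairs, because the labels give no shared animal. Correlations of their deviations were -0.05 to 0.03 in footprints. In the RNA comparisons, which share only 2 numbers, they were 0.22 to 0.42, highest for *Rptor* fl/fl against WT. Whether those lines were paired cannot be told from the labels. The study's methods give pairing as the purpose of the extra set induced in culture, but do not name the libraries made from it. With the number as a block, calls over all genes went from 3195 to 4752, 6307 to 3146, 6453 to 3415, 1782 to 1228, 318 to 4 and 1546 to 1306 in the order above, with 6, 6, 5, 2, 0 and 3 members. Over the other alternatives calls over all genes spanned 2695 to 7209, 3146 to 7571, 3415 to 7671, 651 to 2248, 4 to 1319 and 681 to 1764 in that order, and the highest of the first treats technical libraries as replicates. The length offset gave the lowest count in organoid footprints and in mice. In mice the share of calls that were higher went from 55.6% to as low as 35.7%, and in footprints per mRNA from 38.1% to as high as 52.6%. *Plau*, *Serpine2*, *Serpinb9* and *Serpinb11* held at most 13 footprints per organoid library and fell under the count filter there.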
